A study of Mus musculus with 2 samples.

Results

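Interferon response genes are the genes that cells switch on when interferon reaches them, and 34 of them were followed here through the endothelial cells of the mouse lung. The 34 were named genes, fixed by symbol and not by any measured value, and each matched exactly 1 of the 32286 features of the deposited count matrices. The series profiled single cells sorted from mouse lung by tdTomato, a red fluorescent protein switched on by VE-cadherin-cre, a recombinase driven by the promoter of an endothelial cadherin. There were 2 libraries, 1 titled aWT and 1 titled aKO, both from C57BL/6J mice aged 10 to 12 weeks, and the cells of both groups are labelled as carrying the Cre and tdTomato. The series title names a mouse model of type 2 hereditary hemorrhagic telangiectasia, a vascular disorder tied to the endothelial BMP receptor ALK1, encoded by Acvrl1. The labels name no deleted gene or allele for aKO, no sex and no number of animals per library.

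Type I interferons bind the IFNAR receptor, and the kinases JAK1 and TYK2 then act on STAT proteins, of which STAT2 joins IRF9 in the complex ISGF3. ISGF3 binds a DNA element called the ISRE, while interferon gamma acts on a different element, the GAS. The induced proteins sense or bind viral RNA, hold virus particles at the membrane, attack the vacuoles of intracellular microbes or feed back on the pathway. Many are made at a low level in healthy tissue, and endothelial cells are among the cells that carry such basal expression.

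Each group is 1 library, so replicate error is unknown and no difference between aWT and aKO could be tested. Levels are given in CPM, the summed UMIs of a gene (unique molecular identifiers, 1 per captured transcript) scaled by all UMIs of the same cells. Their intervals (95%, exact Poisson) and those of shares of cells (95%, exact Clopper-Pearson) cover counting error only. Log2 ratios compare aKO with aWT with 5 CPM added on both sides, which shrinks the ratios of low genes. A gene counts as measured at 5 CPM or more in 1 library, and as higher or lower from a 1.5-fold ratio on that scale. A measured gene under 5 CPM on 1 side of a comparison could thus only be called lower on that side.

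The deposited matrices held 72270260 UMIs in 15996 aWT barcodes and 75950364 UMIs in 11045 aKO barcodes, and the libraries shared 48 barcode sequences. In aWT 14064 cells that passed the filters (median 3985 UMIs), and in aKO 10074 (median 5859 UMIs), held more endothelial than other marker UMIs and are called endothelial-like. They were divided by marker UMIs into general capillary (8466 and 4256 cells in aWT and aKO), aerocyte capillary (2348 and 1137), arterial (974 and 942), venous (1056 and 902) and lymphatic cells (466 and 1649), and 5.36% and 11.8% stayed unassigned. The 7 endothelial markers summed to 10426 and 10247 CPM, and of these Cdh5, which encodes VE-cadherin itself, lay lower in aKO (2003 and 849 CPM). In each class the median cell held more UMIs of its own markers than of any other class list, for example 86 and 133 lymphatic marker UMIs in lymphatic cells. The classes were set by these same lists, so this largely follows from the rule and does not check the classes. Acvrl1 stood at 1027 CPM for aWT and 488 for aKO; no deleted exon is named and counts from the 3' end may lie outside it, so this does not check the labels. Xist, which is transcribed from the inactive X chromosome of females, stood at 3.61 CPM for aWT and 728 for aKO, so the sex of the animals and the group cannot be told apart in any comparison below.

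The elements on which interferon factors act can be read upstream of these genes. RefSeq promoter windows (build GRCm38.p6, 250 bases before to 50 after the start site) were found for 25 of the 34 genes, and none was listed for Zbp1, Usp18, Gbp4, Gbp6, Gbp8, Gbp9, Iigp1, Rtp4 and Parp14. The stretches that follow are shown because they carry the motifs of the genes on which the results turn: 4 of the 5 seed genes used to pick out single cells, Gbp2 and Gbp7, which lay lower in aerocytes, Irgm1, which lay within 1.5-fold between classes, Bst2, and Irf1, which stayed under 1.5-fold in the cells with seed gene UMIs. Each is written 5′ to 3′ on the strand of its gene and ends upstream of the start site, and capitals mark every match to the ISRE core, GAAA and GAAA set 2 bases (NN) apart, or to the GAS letters TTCNNNGAA, on either strand, overlapping matches running together.
Isg15 (chr4:156200855-156200916, minus strand): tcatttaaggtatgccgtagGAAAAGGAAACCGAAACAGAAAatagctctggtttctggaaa
Ifit1 (chr19:34640765-34640833, plus strand): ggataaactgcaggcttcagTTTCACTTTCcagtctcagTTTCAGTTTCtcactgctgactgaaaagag
Ifit3 (chr19:34583353-34583436, plus strand): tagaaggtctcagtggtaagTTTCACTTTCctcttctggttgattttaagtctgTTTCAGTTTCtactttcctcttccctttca
Ifit3b (chr19:34607749-34607832, plus strand): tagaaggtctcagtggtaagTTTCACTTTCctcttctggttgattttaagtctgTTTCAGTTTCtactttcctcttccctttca
Gbp2 (chr3:142620584-142620633, plus strand): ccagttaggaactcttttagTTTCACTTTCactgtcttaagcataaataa
Gbp7 (chr3:142530210-142530312, plus strand): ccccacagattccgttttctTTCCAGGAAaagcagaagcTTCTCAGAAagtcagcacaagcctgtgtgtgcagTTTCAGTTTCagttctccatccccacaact
Irgm1 (chr11:48871421-48871470, minus strand): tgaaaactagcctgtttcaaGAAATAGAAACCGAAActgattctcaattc
Bst2 (chr8:71537567-71537628, minus strand): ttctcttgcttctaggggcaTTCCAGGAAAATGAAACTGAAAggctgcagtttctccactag
Irf1 (chr11:53769904-53769952, plus strand): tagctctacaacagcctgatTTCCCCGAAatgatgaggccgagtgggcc

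Isg15 holds 3 overlapping ISRE matches and Ifit1 holds 2 separate ones. Ifit3 and Ifit3b, neighbouring copies of 1 gene on chromosome 19, hold the same 84 bases around their 2 ISRE matches. Bst2 has a GAS match that runs into 2 ISRE matches, Gbp7 has 2 GAS matches and 1 ISRE match, and Irf1 has 1 GAS match and no ISRE match. An ISRE core was present in the windows of 16 of the 25 genes (64%), against 3.99% of the 27025 genes with a window. The GAS letters were present in 8 of 25 (32%), against 9.55% of all genes. No match to either was found in the windows of Irf9, Irf7, Oasl2, Ifi47, Ifi44 and Xaf1. A match describes these letters in this window and says nothing of binding.

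Across all endothelial-like cells, most of the 34 genes lay at similar or somewhat lower levels in aKO, and 3 lay at least 1.5-fold lower: Iigp1, Ifi44 and Bst2. Of 32 measured genes, 0 were at least 1.5-fold higher, against 11.9% of all 11152 measured features, and 3 were at least 1.5-fold lower, against 6.18% of features. Their median log2 ratio was -0.31, where the median of all measured features was 0.09. The log2 ratio was below 0 in 28 of the 32 and above 0 in Irf7, Oas1a, Gbp4 and Ifi35. The share of all features below 0 was not computed, and only their median of 0.09 can be set beside this count. Cxcl10, at 1.11 CPM for aWT and 2.14 for aKO, and Rsad2, at 4.74 and 4.18 CPM, did not reach the minimum.

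**Figure D1:**
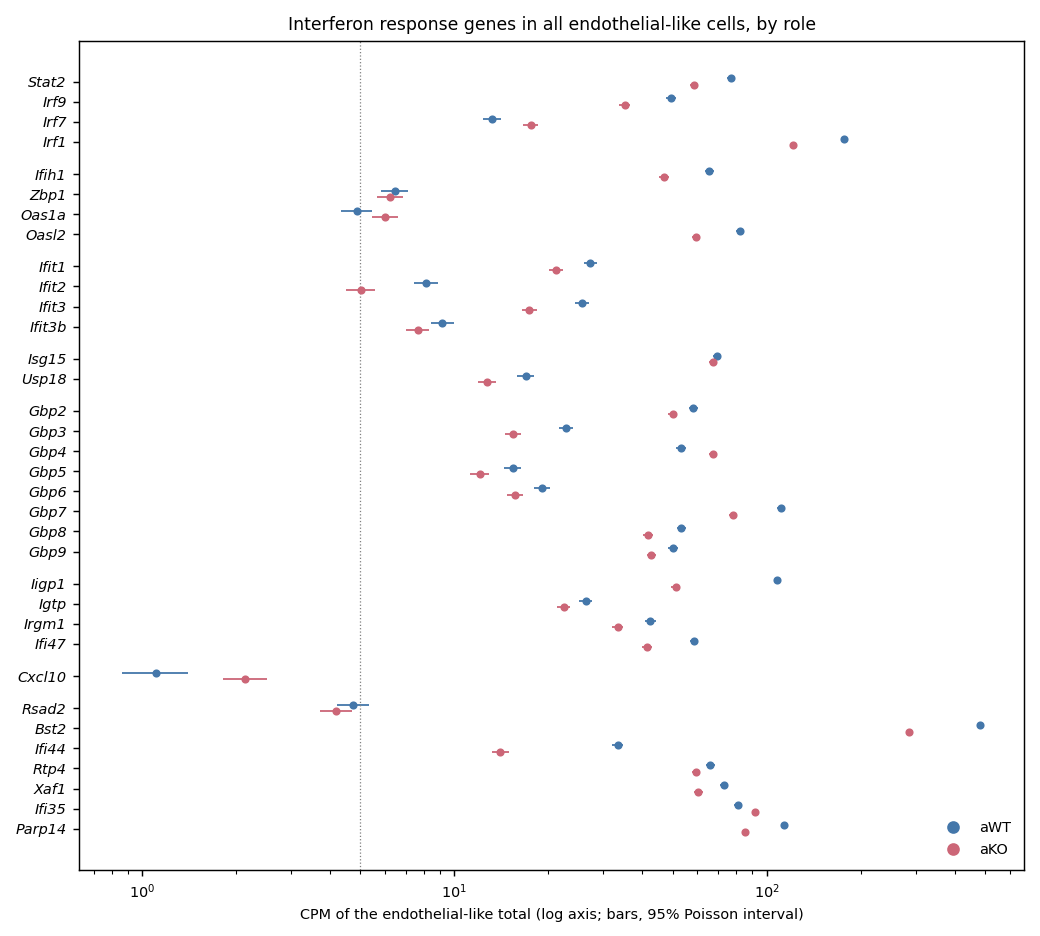
CPM (log axis) of each of the 34 genes over all endothelial-like cells in aWT (blue) and aKO (red), grouped by role; points are library values, bars 95% Poisson intervals and the dotted line the minimum of 5 CPM. With 5 CPM added on both sides, Iigp1, Ifi44 and Bst2 are the 3 measured genes at least 1.5-fold apart. On the plotted scale, which adds nothing, the gaps of Ifit2 and of Cxcl10, which lies below the minimum, also pass 1.5-fold. Gbp4, Irf7, Oas1a and Ifi35 are the measured genes with the aKO point to the right.

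The transcription factors of the pathway lay within 1.5-fold of each other in the 2 libraries. Stat2, the ISGF3 subunit that serves type I signalling, was at 76.8 CPM (95% interval 74.7 to 79.1) in aWT and 58.4 CPM (56.6 to 60.2) in aKO. Irf9, its DNA-binding subunit, was at 49.4 CPM for aWT and 35.1 for aKO. Irf1, a factor induced strongly by interferon gamma, was at 177 CPM for aWT and 122 for aKO (log2 ratio -0.52). These 3 factors lay lower in aKO by less than the 1.5-fold mark. Irf7, the amplifier of type I interferon production, went the other way, at 13.2 CPM for aWT and 17.6 for aKO (log2 ratio 0.31).

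Among the sensors of foreign nucleic acid, Ifih1, which encodes the RNA sensor MDA5, was at 65.6 CPM for aWT and 46.9 for aKO. Oasl2, an oligoadenylate synthetase-like protein, was at 81.8 CPM for aWT and 59.5 for aKO. Zbp1, a sensor of Z-form nucleic acid, was at 6.45 and 6.24 CPM, with overlapping intervals. Oas1a, an oligoadenylate synthetase, was at 4.88 and 6.01 CPM, close to the minimum. Of these 4 genes, none differed by 1.5-fold.

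The IFIT proteins bind viral RNA ends and are classic type I interferon targets. Ifit1 was at 27.2 CPM for aWT and 21.2 for aKO, and Ifit3 at 25.6 and 17.4 CPM. Ifit2 was at 8.12 and 5.02 CPM, and Ifit3b at 9.16 and 7.62 CPM. All 4 lay lower in aKO and within 1.5-fold on the log2 scale used. The longest coding transcripts of Ifit3 and Ifit3b agree at 98% of aligned bases, and the last 500 bases, where 3' reads fall, at 58.7% of aligned bases, so how reads were shared between these copies is uncertain. Isg15, a ubiquitin-like modifier, was at 69.5 CPM for aWT and 67.4 for aKO, with overlapping intervals. Usp18, the protease that removes it and also restrains the IFNAR receptor, was at 16.9 and 12.7 CPM.

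The guanylate binding proteins are large GTPases, induced above all by interferon gamma, that coat the vacuoles of intracellular microbes. Gbp2, Gbp3, Gbp5 and Gbp7 lie together on chromosome 3, and Gbp4, Gbp6, Gbp8 and Gbp9 on chromosome 5. All 8 lay within 1.5-fold between libraries. Gbp7 was at 111 CPM for aWT and 78.0 for aKO (log2 ratio -0.48), and Gbp2 at 58.2 and 50.0 CPM. Gbp4 lay higher in aKO, at 53.2 CPM for aWT and 67.4 for aKO (log2 ratio 0.32). Gbp3, Gbp5 and Gbp6 lay between 15.4 and 22.8 CPM in aWT and between 12.1 and 15.6 CPM in aKO, and Gbp8 and Gbp9 were at 53.3 and 50.1 CPM in aWT and 41.6 and 42.8 CPM in aKO. The annotated spans of Gbp4, Gbp8 and Gbp9 overlap on the same strand, so reads between these 3 genes may have been split or lost, and their separate values are uncertain.

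The immunity related GTPases act on the same vacuoles. Iigp1 was at 108.0 CPM (105 to 111) in aWT and 51.2 CPM (49.6 to 52.9) in aKO, a ratio of 0.474 (0.455 to 0.494 by counting error). Igtp was at 26.3 and 22.4 CPM, Irgm1 at 42.4 and 33.4 CPM, and Ifi47 at 58.5 and 41.4 CPM. Iigp1 was thus the one member of this family past the 1.5-fold mark, while the other 3 lay lower by smaller ratios. Igtp and Ifi47 overlap Irgm2 and Olfr56 on their strand, as Irf9 overlaps Rnf31 and Gbp6 overlaps Gm43302, so the counts of these genes carry that uncertainty.

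Of the remaining effectors, Bst2, which encodes tetherin, a membrane protein that holds budding virus (mm10 chr8:71534255-71537456, minus strand), was at 481 CPM (476 to 487) in aWT and 286 CPM (282 to 290) in aKO, with a log2 ratio of -0.74. Ifi44, an interferon-induced gene of unsettled function (mm10 chr3:151730922-151749960, minus strand), was at 33.3 CPM for aWT and 14.0 for aKO, a log2 ratio of -1.01. Parp14, an ADP-ribosyltransferase, was at 114 and 85.5 CPM, Xaf1, a proapoptotic factor, at 73.2 and 60.5 CPM, and Rtp4, a receptor transporter, at 66.0 and 59.3 CPM. Ifi35 lay higher in aKO, at 80.9 CPM for aWT and 91.9 for aKO (log2 ratio 0.17). Among these effectors the gap passed 1.5-fold for Bst2 and Ifi44.

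The genes above and beside these in the pathway, taken from lists of receptors, inhibitors and further targets, lay mostly within 1.5-fold as well. No interferon gene reached the minimum, and the 8 ligands in the list summed to 0.03 CPM for aWT and 0.01 for aKO. Of the 8 receptor and JAK-STAT genes, 0 were higher and 0 lower; Ifngr2, a chain of the interferon gamma receptor, stood at 63.2 and 43.4 CPM (log2 ratio -0.49). Of 5 measured feedback inhibitors, Socs3 lay lower, at 138 CPM for aWT and 68.0 for aKO. Of 29 measured further type I targets, 3 were higher and 6 lower: Ifi204 (247 and 67.4 CPM), Ifi203 (191 and 64.3 CPM) and Slfn5 (414 and 220.1 CPM) had the largest gaps downward, and Slfn2 (31.9 and 65.3 CPM) the largest upward. Of 15 measured further interferon gamma targets, 2 were higher and 4 lower, among them Serping1 (8.38 and 33.1 CPM) and Irf8 (log2 ratio 0.87) upward and Ciita (11.4 and 1.45 CPM) and Psmb9 (141 and 83.7 CPM) downward. Chosen after their values were seen, and outside these lists, the interferon target Ifi27l2a stood at 18.3 and 210 CPM (log2 ratio 3.20) and H2-D1, an MHC class I heavy chain, at 1889 and 3011 CPM (0.67); both lay at least 1.5-fold higher in aKO in each of the 5 classes. The background for both directions is the 11.9% and 6.18% of features given above.

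RNA of other cell types also differed between the libraries. The 8 epithelial markers summed to 221 CPM for aWT and 28.1 for aKO endothelial-like cells, and the 10 immune markers to 26.1 and 3.24 CPM; the part of this RNA in the results was not tested. Of the immune markers Lyz2 alone reached the minimum (21.6 CPM in aWT), the pan-leukocyte gene Ptprc was at 0.53 and 0.19 CPM, and Nkg7 was at 0 UMIs in aWT. Malat1, a long RNA kept in the nucleus, stood at 39536 and 26801 CPM, and its part was not tested.

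The mixture of cell classes differed between the libraries, so each class was compared on its own. In general capillary cells, the cells of the capillary bed that also renew it, the genes lay closer together than over all cells, with a median log2 ratio of -0.08 against 0.09 for all features. Marker sums in this class differed too, at 9022 and 7029 CPM for general capillary and 1406 and 488 CPM for arterial markers. Aerocyte markers summed to 940 and 1665 CPM and epithelial markers to 239 and 18.8 CPM, and the part of these shifts was not tested. Of 33 measured genes, 0 were higher (8.08% of features) and 4 were lower (5.89% of features). Iigp1 was at 133 CPM for aWT and 51.3 for aKO (log2 ratio -1.29), and Ifi44 at 34.5 and 14.1 CPM (-1.05). Bst2 was at 516 and 316 CPM (-0.70), and Gbp5 at 14.4 and 7.36 CPM (-0.65). The type I targets Ifit3 (26.0 and 27.4 CPM), Isg15 (72.9 and 82.0 CPM) and Oasl2 (92.1 and 97.1 CPM) stood slightly higher in aKO within this class. That is against the direction seen over all cells, but the intervals of Ifit3 and Oasl2 overlapped between the libraries. The log2 ratios of Ifit3 (0.06) and Oasl2 (0.07) also lay below the median of all features, and that of Isg15 (0.16) above it. Ifit2 stood lower in aKO, at 7.94 and 3.85 CPM (-0.55).

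Venous cells held the largest number of lower genes of the 5 classes. Of 32 measured genes, 12 were at least 1.5-fold lower in aKO (8.3% of features) and 1 was higher (14% of features), and the median log2 ratio was -0.46 against 0.06 for all features. Iigp1 was at 160 CPM for aWT and 51.5 for aKO (log2 ratio -1.54), and Ifi44 at 32.9 and 8.25 CPM (-1.52). Ifit3 was at 32.3 and 12.3 CPM (-1.11), Irf1 at 171 and 81.8 CPM (-1.02), Ifih1 at 64.5 and 33.7 CPM (-0.84) and Ifit1 at 30.6 and 15.3 CPM (-0.81). The lower genes thus took in factors, sensors, IFITs and GTPases alike; the others were Gbp5 (-0.76), Parp14 (-0.70), Gbp7 (-0.69), Oasl2 (-0.65), Bst2 (-0.64) and Irf9 (-0.64). Cxcl10, a chemokine that draws T cells, was the higher one, at 3.18 and 8.70 CPM (0.74). It counted as measured through aKO alone, so it could not have been called lower. Venous cells also differed in the 6 proliferation markers, which summed to 32.0 CPM for aWT and 491 for aKO; without the cells that held such UMIs, 11 genes were lower, 9 of them among the 12, and 0 were higher. The general capillary markers summed to 3083 and 1462 CPM in venous cells, with 5 of 7 lower, and the venous markers to 6618 and 3775 CPM, with 3 of 8 lower. In venous cells the epithelial markers summed to 163 and 17.2 CPM, the immune markers to 17.2 and 1.81 CPM, and Malat1 stood at 31837 and 17575 CPM; their part in the result was not tested. The difference of the venous ratios from those of other classes was not tested.

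**Figure D2:**
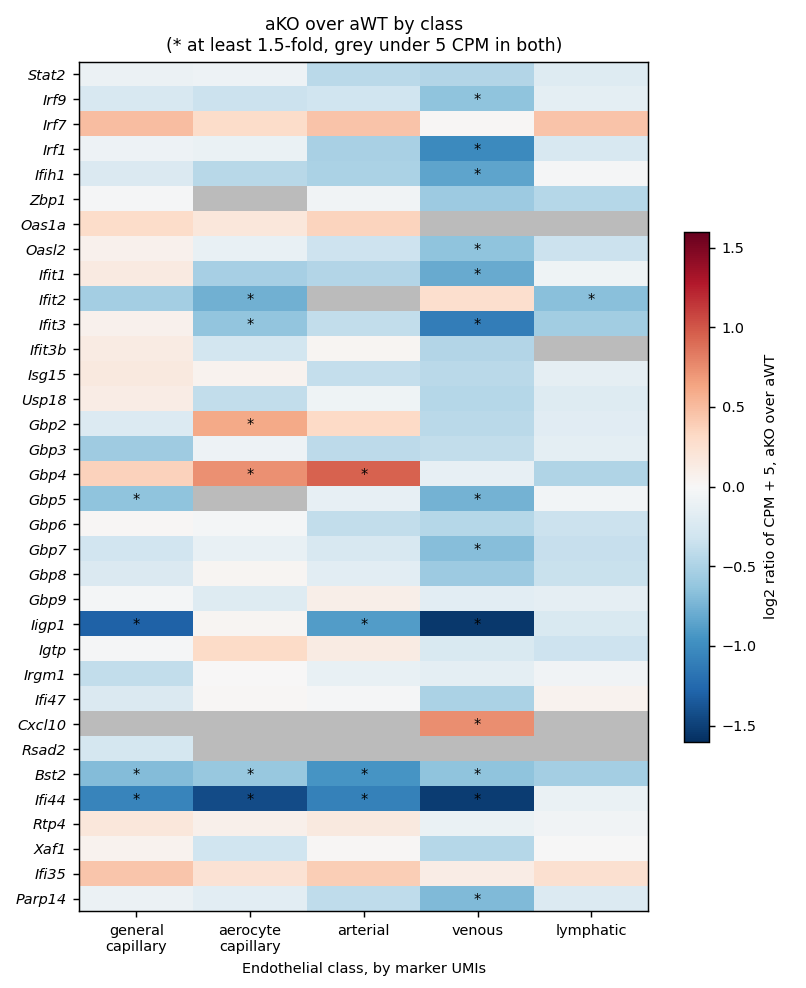
Log2 ratio of CPM plus 5, aKO over aWT, for each gene (rows, by role) in each endothelial class (columns); blue is lower in aKO, red higher, stars mark at least 1.5-fold and grey cells are under 5 CPM in both libraries. The venous column holds 12 blue stars, and the rows of Bst2 and Ifi44 hold blue stars in 4 of 5 columns.

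In aerocytes, the large capillary cells that line the gas exchange surface, 2 of 30 measured genes were higher (7.21% of features) and 4 lower (4.33%). Gbp4 was at 22.8 CPM for aWT and 41.0 for aKO (log2 ratio 0.73), and Gbp2 at 12.6 and 21.9 CPM (0.61). The lower genes were Ifi44 (29.5 and 7.84 CPM, -1.43), Ifit2 (11.0 and 4.37 CPM, -0.77), Ifit3 (22.6 and 12.8 CPM, -0.63) and Bst2 (468 and 306 CPM, -0.61). Iigp1, lower in 3 of the other classes, was at 6.64 and 6.93 CPM here. The aerocyte median was -0.10.

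In arterial cells 1 of 31 measured genes was higher (9.6% of features) and 3 were lower (8.32%). Gbp4 was at 45.8 CPM for aWT and 92.7 for aKO (log2 ratio 0.94). Ifi44 was at 39.2 and 15.9 CPM (-1.08), Bst2 at 532 and 274 CPM (-0.95) and Iigp1 at 106 and 54.4 CPM (-0.89). In lymphatic cells 0 of 30 were higher (5.33% of features) and 1 was lower (5.85%), Ifit2 at 16.2 and 8.27 CPM (-0.67). The median log2 ratio was -0.17 in arterial and -0.19 in lymphatic cells.

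Across the 5 classes, Bst2 and Ifi44 were lower in 4 classes each, and Iigp1 in 3. Of 27 genes measured in all 5 classes, 9 had a log2 ratio below 0 in each class: Stat2, Irf9, Irf1, Ifih1, Gbp3, Gbp7, Bst2, Ifi44 and Parp14. The ratio was above 0 in each class for 2 genes, Irf7 and Ifi35. The share of all features on 1 side of 0 in each class was not computed. The 5 classes come from the same 2 libraries, so they do not repeat the comparison independently. The ratios of Irf7 ran from 0.01 in venous to 0.50 in general capillary cells, and those of Ifi35 from 0.12 to 0.44, without reaching the mark.

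Within each library the classes could be compared with one another, and here the 2 libraries give the same contrast measured in 2 sets of cells. Aerocytes carried less of 5 of the 8 guanylate binding proteins than general capillary cells in both libraries; Gbp6 lay within 1.5-fold in both, Gbp8 in aKO and Gbp9 in aWT. Of 33 genes measured in aWT, 9 were at least 1.5-fold lower in aerocytes (14.1% of features) and 0 higher (10.2%); in aKO 11 of 31 were lower (11.9%) and 0 higher (8.03%). The genes lower in both libraries were Zbp1, Gbp2, Gbp3, Gbp4, Gbp5, Gbp7 and Iigp1. For this and the other class contrasts below, the share of all features called in both libraries was not computed. Zbp1 and Gbp5 were under 5 CPM in aerocytes and counted as measured through general capillary cells alone, so they could only be called lower. Any gene under the minimum in 1 of the classes compared could likewise only be called lower in that class. Ifit2 was such a gene in general capillary cells of aKO (3.85 CPM). Iigp1 was at 6.64 CPM in aerocytes against 133 CPM in general capillary cells of aWT, and at 6.93 against 51.3 CPM in aKO. Gbp2 was at 12.6 against 72.5 CPM in aWT and at 21.9 against 61.8 CPM in aKO, and Gbp7 at 49.8 against 140 CPM in aWT and 45.5 against 112 CPM in aKO. Gbp5 was at 0.36 and 1.81 CPM in aerocytes, against 14.4 and 7.36 CPM. By contrast Irf1 was at 194 CPM in aerocytes and 192 CPM in general capillary cells of aWT, and at 180 and 181 CPM in aKO. Stat2, Irf9, Rtp4 and Xaf1 also lay within 1.5-fold between these classes in both libraries.

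Lymphatic cells carried less of most of the 34 genes. Against general capillary cells, 22 of 33 were lower in aWT (14.3% of features) and 24 of 32 in aKO (15.1%), 20 of them in both, while Ifit2 alone was higher in each library (19.7% and 18.1% of features). The share of all features lower in both was not computed, so the 20 have no background beside them. Oasl2 was at 8.08 CPM in lymphatic against 92.1 CPM in general capillary cells of aWT, and at 5.29 against 97.1 CPM in aKO. Rtp4 was at 14.2 against 71.8 CPM in aWT and 13.5 against 81.7 CPM in aKO, and Ifi47 at 10.4 against 71.5 and 11.0 against 60.2 CPM. Irf1 was at 60.4 against 192 CPM in aWT and 49.6 against 181 CPM in aKO. Irf9, Irgm1 and Bst2 lay within 1.5-fold in both libraries, with Bst2 at 463 against 516 CPM in aWT and 317 against 316 CPM in aKO. Summed over the 34 genes, the level in lymphatic cells was 1327 CPM for aWT and 1063 for aKO, and in general capillary cells 2335 and 1983 CPM.

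**Figure D3:**
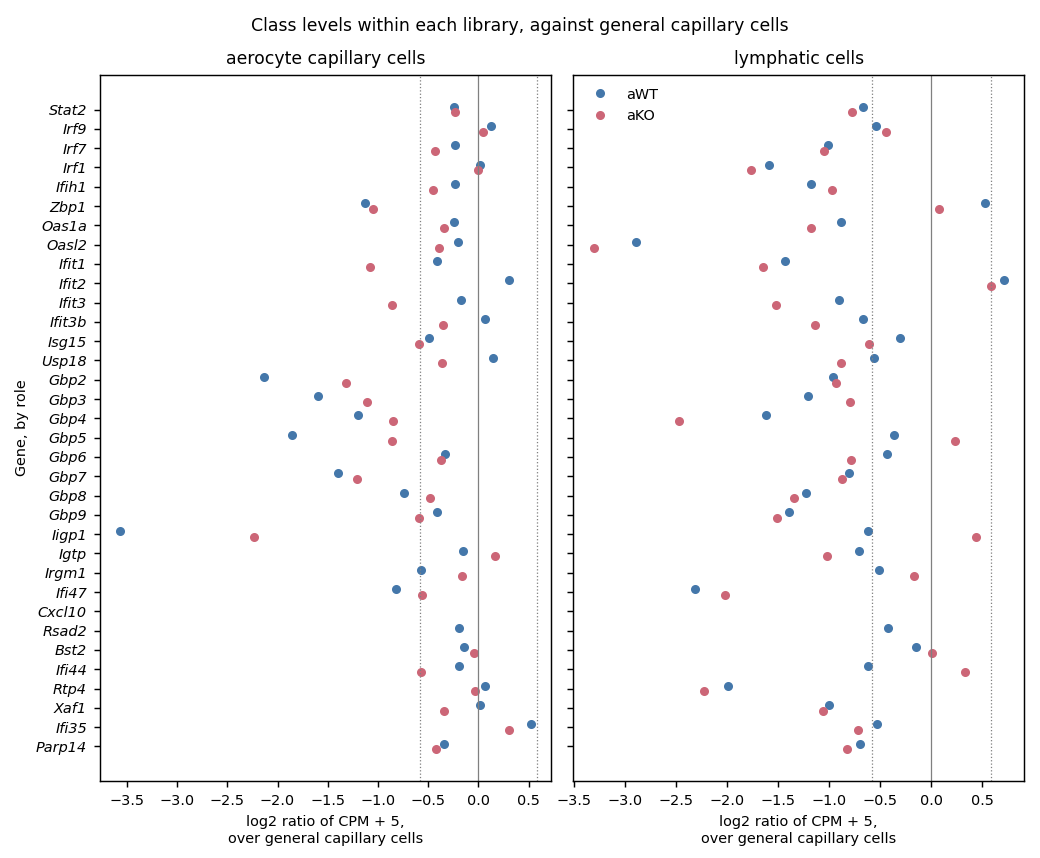
Log2 ratio of CPM plus 5 in aerocytes (left) and lymphatic cells (right) over general capillary cells of the same library, for each gene by role; aWT in blue, aKO in red, dotted lines at 1.5-fold. Iigp1, Gbp2, Gbp3 and Gbp7 lie left of the line in aerocytes of both libraries, and Oasl2, Rtp4 and Ifi47 lie farthest left in lymphatic cells together with Gbp4 of aKO.

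Fewer of the genes lay lower in arterial and venous than in lymphatic cells, against general capillary cells. In arterial cells 7 of 33 genes were lower in aWT (10.9% of features) and 10 of 31 in aKO (14.5%), and Stat2, Usp18, Gbp7 and Rtp4 were so in both. Usp18 was at 6.59 against 18.3 CPM in aWT and at 6.02 against 20.3 CPM in aKO. In venous cells 2 of 33 were lower in aWT (8.89%) and 14 of 33 in aKO (13.6%), with Bst2 in both, at 312 against 516 CPM and 199 against 316 CPM. Gbp5 was higher than in general capillary cells in both vessel types and both libraries: 30.1 CPM in arterial and 30.2 CPM in venous cells of aWT, and 27.1 and 15.8 CPM in aKO (12.8% and 10.8% of aWT features and 13.9% and 16.1% of aKO features were higher).

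The single cells showed how these levels were spread. Each cell was thinned to 2000 UMIs, which left 12309 aWT and 8899 aKO endothelial-like cells and left out 1755 and 1175 shallower ones. The median cell then held 3 UMIs of the 34 genes in aWT and 2 in aKO, and 5.87% and 11.2% of cells held none, while the top 1% held at least 18 and 16 and the highest cell 52 and 57. An Isg15 UMI was found in 10.3% of aWT and 9.94% of aKO cells, an Ifit1 UMI in 4.30% and 3.51%, a Bst2 UMI in 57.3% and 40.5%, and an Iigp1 UMI in 16.2% and 7.41%. In aWT epithelial cells (135 after thinning), taken as a rough measure of free RNA, the shares were 2.22% for Isg15, 0.74% for Ifit1, 8.89% for Bst2 and 0.74% for Iigp1. Thinning took more UMIs from these cells than from aWT endothelial-like cells (median 3985 before it). The epithelial shares may therefore understate the free RNA in endothelial-like cells. Before thinning those epithelial cells had a median of 15297 UMIs, and the shares in aWT and aKO endothelial-like cells were 17.0% and 21.1% for Isg15, 7.78% and 7.88% for Ifit1, 73.0% and 67.7% for Bst2 and 25.8% and 18.4% for Iigp1. A Usp18 UMI was found in 3.29% and 2.49% of thinned endothelial-like cells but in 7.41% of the epithelial cells, so no difference is read from this share. Whether epithelial cells make Usp18 or the other genes themselves was not tested.

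Cells that hold several type I targets at once were picked out with 5 seed genes: Ifit1, Ifit3, Ifit3b, Isg15 and Rsad2. UMIs of at least 2 of the 5 were found in 480 of 12309 aWT cells (3.90%, 3.56 to 4.26) and in 279 of 8899 aKO cells (3.14%, 2.78 to 3.52). Ifit3 and Ifit3b count as separate seed genes although their reads may be split. Such cells occurred in each class. In general capillary cells the share was 4.32% (3.87 to 4.81) in aWT and 4.78% (4.09 to 5.54) in aKO, and the intervals overlap. It was 2.88% and 1.44% in aerocytes, 3.08% and 1.97% in arterial, 4.03% and 2.03% in venous and 1.72% and 1.27% in lymphatic cells, with 7 lymphatic cells in aWT and 15 aerocytes in aKO as the smallest numbers. The order of the libraries depended on thinning: without it the shares over all cells were 8.04% in aWT and 8.57% in the more deeply sequenced aKO.

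**Figure D4:**
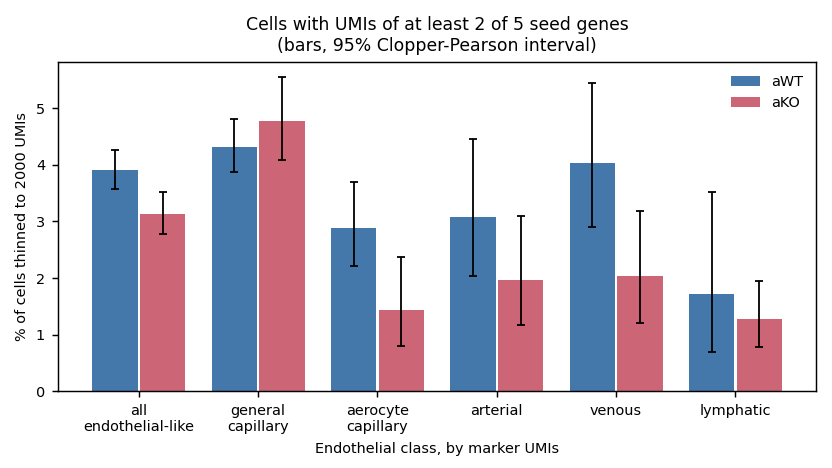
Percent of cells, thinned to 2000 UMIs, with UMIs of at least 2 of the 5 seed genes in aWT (blue) and aKO (red), over all endothelial-like cells and by class; bars start at 0 and error bars are 95% Clopper-Pearson intervals. The general capillary bars are at 4.32% and 4.78%, and the lymphatic bars are the lowest in each library, at 1.72% and 1.27%.

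The other genes of the set lay higher in the same cells in both libraries. Of the 29 other genes, 27 were measured over all cells, and in cells with at least 2 seed genes 26 lay at least 1.5-fold above the remaining cells in aWT (2.09% of features) and 25 in aKO (3.69%), with 0 lower. The median log2 ratio of these cells over the remaining cells was 1.53 in aWT and 1.62 in aKO. These values and those that follow pool the classes, whose mixture differed between the 2 sets of cells. Within general capillary cells alone, 26 of 27 lay higher in aWT (3.05% of features) and 23 of 27 in aKO (6.19%). Oasl2 was at 391 CPM in the seed gene cells and 69.5 CPM in the rest of aWT, and at 385 and 55.0 CPM in aKO. Usp18 was at 116 and 14.2 CPM in aWT (log2 ratio 2.65), and its log2 ratio in aKO was 2.63. Irf7 was at 66.7 and 11.9 CPM in aWT and 118 and 13.9 CPM in aKO, and Rtp4 at 282 and 60.1 CPM in aWT and 305 and 54.6 CPM in aKO. The GTPases lay higher too, with Iigp1 at 372 and 99.9 CPM in aWT (log2 ratio 1.85, and 1.98 in aKO).

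Irf1 in both libraries, and Gbp9 in aKO, stayed under the 1.5-fold mark. Irf1, whose window holds a GAS and no ISRE match, was at 229 CPM in the seed gene cells and 187 CPM in the rest of aWT (log2 ratio 0.28), and at 204 and 138 CPM in aKO (0.55). The windows of Ifi35 and Ifit2 also hold a GAS and no ISRE match. Both genes passed the mark in aWT, as did Ifi35 in aKO. Gbp9 stood at 93.8 and 50.0 CPM for aWT (0.85), against 60.9 and 44.0 for aKO (0.43). Bst2 passed the mark, at 836 and 483 CPM in aWT and 586 and 285 CPM in aKO. The genes can also be divided by the ISRE core: in aWT the median log2 ratio was 1.48 for 9 genes with a match and 1.72 for 9 genes whose window had none, and in aKO it was 1.61 for 10 and 1.92 for 8.

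**Figure D5:**
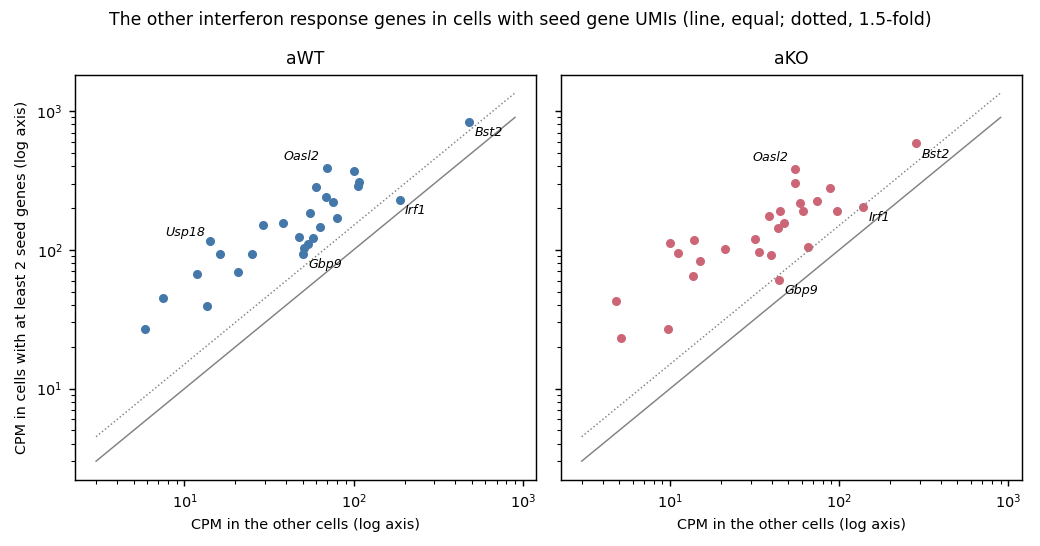
CPM in cells with at least 2 seed genes (y) against CPM in the remaining endothelial-like cells (x), both on log axes, for the measured genes other than the seeds, in aWT (left) and aKO (right). All but Irf1 in aWT, and all but Irf1 and Gbp9 in aKO, lie past the 1.5-fold mark on the CPM plus 5 scale.

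Other genes of the pathway were set beside the 34. In the seed gene cells 24 of 29 measured further type I targets were higher in aWT and 27 of 29 in aKO, among them Cmpk2 (log2 ratios 1.99 and 2.58) and Slfn2 (2.09 and 1.94). Of the receptor chains, Ifnar1 (0.18 and 0.07) and Ifnar2 (0.07 and 0.19) lay near 0, as did the kinase gene Jak1 (-0.21 and 0.15). Single pairs showed the same: among aWT cells with an Ifit1 UMI, 23.6% (20.1 to 27.5) also had an Ifit3 UMI, against 3.20% (2.89 to 3.53) of the others, and in aKO 22.1% (17.6 to 27.1) against 2.15% (1.86 to 2.48). For Irf1 the shares were 31.8% against 28.4% in aWT, with overlapping intervals, and 28.8% against 21.7% in aKO. These shares pool the classes. Within general capillary cells of aKO they were 31.3% (24.7 to 38.6) against 28.9% (27.3 to 30.5), with overlapping intervals.

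Iigp1, Ifi44 and Bst2, picked as lower over all cells, were also read apart in the seed gene cells and the remaining cells. The remaining cells were 11829 of 12309 in aWT and 8620 of 8899 in aKO. The lower values there thus largely repeat the result that picked these genes. In the remaining cells Iigp1 was at 99.9 CPM for aWT and 44.5 for aKO (log2 ratio -1.08), Ifi44 at 29.2 and 10.0 CPM (-1.19) and Bst2 at 483 and 285 CPM (-0.75). Within the seed gene cells Ifi44 was at 151 CPM for aWT and 111 for aKO (-0.43), the log2 ratio of Iigp1 was -0.95, and Bst2 was at 836 and 586 CPM (-0.51). Whether the ratio of Ifi44 differs between these 2 sets of cells was not tested.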

How the data were processed

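The deposited matrices hold raw UMI counts per gene and barcode, made by the authors; the submitters' processing notes name Cell Ranger 7.2.0 and mm10, and the labels' protocols name 3' v3 chemistry. Which annotation was used, and whether intronic reads were counted, is not given in the sources used here. The genes and lists were chosen with earlier results of these data known.

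Barcodes under 500 genes or over 15% mitochondrial counts were dropped, and Scrublet (scanpy 1.11.5), run per library at an expected rate of 0.8% per 1000 barcodes, removed 787 aWT (5.03%) and 370 aKO barcodes (3.43%). A cell was endothelial-like with at least 5 endothelial marker UMIs and more of them than of epithelial, immune, mesenchymal or mesothelial ones. Its class was the marker list with the highest mean log value at a margin of 0.2, set on marker UMIs; 62 to 496 cells per blood vessel class and library, and 7 and 13 lymphatic cells, lay near that margin. Hmcn1 was left out of the rule because venous cells also held it.

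Counts were summed per class and library and scaled to CPM. Tools were Python 3.11.15, numpy 2.4.6, scipy 1.17.1, leidenalg 0.10.2 and edgeR 4.0.16 (TMM factors only); the size rule, the ratio interval and the class rule were tested on simulated data. All 34 genes are accounted for; those at 5 CPM or more are named with both values, and up to 4 per pathway list by the size of their ratio, with other pathway genes in the seed gene cells named after their values were seen. Alternatives were TMM, the mean over cells, equal class weights, doublet calls kept, a stricter (1000 genes, 10%) and looser (200 genes, 25%) cell filter, a pseudocount of 1, minimums of 1 and 20 CPM, a margin of 0.4, Leiden clusters, thinning, and leaving out cells with proliferation marker UMIs; for venous cells they were chosen after seeing the data. The margin of 0.4 stands in for a rule of double the marker UMIs. Protein sequences were not used here. The values of 1 pathway gene are not reported here.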

Additional observations from a re-analysis of the deposited data

How the results depend on the processing

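Iigp1, Ifi44 and Bst2 were lower over all endothelial-like cells under each of the 13 alternatives tried, joined by Ifit2 at a pseudocount of 1, and 0 genes were higher. The stricter margin, the 2 minimums and the pseudocount of 1 could not have removed these calls. The margin leaves the set of all endothelial-like cells unchanged, and a smaller pseudocount only widens a ratio. Both minimums lie below the aWT levels of Iigp1, Ifi44 and Bst2. The median over all cells moved to -0.22 with equal weight of the classes and to -0.27 in thinned cells, from -0.31; under the other alternatives it stayed within the members' counting bounds. In general capillary cells the number of lower genes ran from 3 to 6, and 1 gene, Irf7, was higher with a pseudocount of 1, where 0 had been. In venous cells 11 to 17 genes were lower; the 1 higher gene, Cxcl10, was lost (0) at a minimum of 20 CPM, in thinned cells and without proliferating cells. Of 408 values of single genes, 406 kept their sign and 94 moved past their counting interval, and no gene called at 1.5-fold changed direction. All 408 were taken over all endothelial-like cells, so the margin, the 2 minimums and the pseudocount could not have changed a sign. The share of cells with seed genes followed the rule and the depth: from 3.90% and 3.14% in aWT and aKO it went to 16.1% and 14.4% with 1 seed gene, to 1.07% and 0.78% with 3, to 8.04% and 8.57% without thinning and to 1.71% and 1.20% at 1000 UMIs; the cause was not tested beyond the construction of each rule.

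No paired analysis was possible because each group has 1 library. Depth limits the genes near 5 CPM (Ifit2, Oas1a, Zbp1, Rsad2, Cxcl10) and the seed gene cells of single classes. With doublet calls kept the seed gene shares were 3.71% and 2.79%, and with the stricter cell filter 4.18% and 2.87%; thinning is a random draw.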
